A study of Homo sapiens with 9 samples.

Results

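The genes described here are 44 genes of DNA replication and deoxynucleotide synthesis, taken by symbol from a written list out of 26625 genes with counts. Each deposited transcript entry was matched to a RefSeq gene symbol, and the entry with most reads was kept for a gene. The list was chosen with earlier results of these data known. All 44 genes were found. They fall into 9 groups by role: the MCM2-7 helicase, origin licensing, helicase activation, primase and DNA polymerases, the sliding clamp and its loader, the single-strand binding protein RPA, lagging-strand maturation, nucleotide synthesis, and chromatin assembly and maintenance.

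The series tested a library method for homopolymer stretches, in which total RNA was reverse transcribed from oligo(dT) primers and the cDNA was joined to a second adaptor by splinted ligation and amplified by PCR. The cells were HEK293T, derived from human embryonic kidney and transformed, and A549, derived from a human lung carcinoma, and the labels give both as WT in genotype. HEK293T was grown in DMEM high glucose and A549 in F-12K, each with 10% FBS, so the medium and the cell line cannot be told apart. Gene counts were available for 7 libraries, 1 for each of 6 primers in HEK293T (T12, T18, T30, T18V, T18VN and T18VNN) and 1 for A549 with T12. T12, T18 and T30 are plain runs of 12, 18 and 30 T, and the other 3 primers carry an anchor of 1, 2 or 3 bases after 18 T. For T12, the counts come from biological replicate 1 of HEK293T and biological replicate 2 of A549. Each line stands for itself and not for its tissue, and with 1 library for A549 the comparison of the cell lines has no replicate check and no test.

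Reads on genes numbered 1498224 in A549 and 2215977 to 5200705 in HEK293T. Levels are given as CPM, the read count scaled to a common total of gene reads. A level of 3 reads was taken as the detection floor, which is 2.00 CPM in A549 and 0.577 to 1.35 CPM in HEK293T. Intervals and floors cover counting error only, since the reads carry no molecular identifiers. Marker lists were also read, but they were chosen with earlier results of these data known. They are therefore no independent check of the cell line labels. Of 19 A549 markers, 16 had enough reads to compare. All 16 were at least 2-fold higher in A549, against 31.0% of all genes compared. The surfactant genes SFTPB and SFTPC and the epithelial gene EPCAM had 0 reads in A549. Of 12 HEK293T markers with enough reads, 9 were at least 2-fold lower in A549 and 1 was at least 2-fold higher. Over all genes compared, 29.2% were at least 2-fold lower. Of 8 blood and endothelial markers, 7 had 0 reads in A549 and all 8 had 0 reads in HEK293T T12.

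Before S phase, the origin recognition complex, CDC6 and CDT1 load the MCM2-7 ring onto DNA. In S phase, CDC45 and the GINS complex join the ring to form the active helicase, primase and DNA polymerase alpha lay down primers, and polymerases delta and epsilon extend them with the PCNA clamp. Many of these genes are transcribed at the G1/S boundary under the E2F family, whose sites commonly lie close to the transcript start, and thymidylate synthase, ribonucleotide reductase and thymidine kinase supply the precursors.

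Promoter windows of 4 genes with large differences between the cell lines and E2F-type letters, and of FEN1, which was also lower in A549 and has none, are printed to show the stretch around the start site. They are RefSeq promoter windows on GRCh38.p14, 250 bases before to 50 bases after the start, written 5′ to 3′ on the strand of the gene. The coordinates are chr3:127598161-127598460 (plus strand) for MCM2, chr6:52284693-52284992 (minus strand) for MCM3, chr17:40287629-40287928 (plus strand) for CDC6, chr22:19479670-19479969 (plus strand) for CDC45 and chr11:61792661-61792960 (plus strand) for FEN1. CDC45 has 3 windows in the table, and the one shown was chosen because it is the one with a match, while the other 4 genes have 1 window each. Capitals mark matches to TTTCCCGC, TTTGGCGC, TTTGGCGG or TTTCGCGC on either strand.
MCM2: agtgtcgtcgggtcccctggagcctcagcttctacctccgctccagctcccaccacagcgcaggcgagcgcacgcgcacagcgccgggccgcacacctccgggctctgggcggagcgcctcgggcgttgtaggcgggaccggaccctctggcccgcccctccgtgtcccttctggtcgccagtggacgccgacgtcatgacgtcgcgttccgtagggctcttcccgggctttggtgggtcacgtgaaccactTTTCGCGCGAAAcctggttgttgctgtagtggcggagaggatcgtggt
MCM3: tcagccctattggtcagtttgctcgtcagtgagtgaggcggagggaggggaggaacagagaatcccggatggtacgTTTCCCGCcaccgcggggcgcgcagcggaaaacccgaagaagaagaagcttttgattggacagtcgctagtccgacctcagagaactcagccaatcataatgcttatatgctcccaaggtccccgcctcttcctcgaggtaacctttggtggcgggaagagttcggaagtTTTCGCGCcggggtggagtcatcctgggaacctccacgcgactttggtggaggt
CDC6: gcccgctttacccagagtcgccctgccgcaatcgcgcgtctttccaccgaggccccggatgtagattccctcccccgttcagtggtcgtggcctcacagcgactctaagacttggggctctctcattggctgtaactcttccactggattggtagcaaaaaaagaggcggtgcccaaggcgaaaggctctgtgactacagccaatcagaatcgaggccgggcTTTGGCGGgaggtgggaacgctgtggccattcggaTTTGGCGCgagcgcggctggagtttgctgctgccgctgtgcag
CDC45: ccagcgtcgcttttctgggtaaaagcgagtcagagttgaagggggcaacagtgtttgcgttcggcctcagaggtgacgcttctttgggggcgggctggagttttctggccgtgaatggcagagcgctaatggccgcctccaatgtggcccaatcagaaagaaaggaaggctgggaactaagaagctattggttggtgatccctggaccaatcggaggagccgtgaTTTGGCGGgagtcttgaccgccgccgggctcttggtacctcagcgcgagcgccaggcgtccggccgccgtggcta
FEN1: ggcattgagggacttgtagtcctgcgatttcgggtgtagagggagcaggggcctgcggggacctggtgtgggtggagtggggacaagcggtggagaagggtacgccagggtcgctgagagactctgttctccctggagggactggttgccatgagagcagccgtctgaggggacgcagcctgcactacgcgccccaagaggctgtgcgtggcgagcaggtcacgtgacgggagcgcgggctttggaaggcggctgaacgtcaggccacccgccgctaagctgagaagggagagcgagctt

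In the MCM2 window the capitals are a pair of overlapping matches to TTTCGCGC, one on each strand, which begin 3 and 7 bases after the start. A promoter window was at hand for 38 of the 44 genes, the exceptions being MCM4, MCM5, GINS4, POLD3, RPA2 and RPA3. At least 1 of the 4 E2F-type words was present in 23 of the 38 genes (60.5%), against 4.05% of 27305 genes with a window. Among the 8800 of these genes tested between primers with and without an anchor in HEK293T, the share was 7.22%. A gene can have several windows and counts here if any of them holds a match. Counted by window, 24 of the members' 52 windows (46.2%) held one, against 3.35% of all 35116 windows. The CCAAT word, searched on both strands as well, was present in 23 of 38 genes (60.5%) and in 39.7% of all genes. The word TTTGAA, known from promoters of mitotic genes as the CHR element, was present in 2 of 38 (5.26%) and in 18.2% of all genes. A match is a description of letters and not a binding site, and a window without one says only that these letters are not in it.

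**Figure D1:**
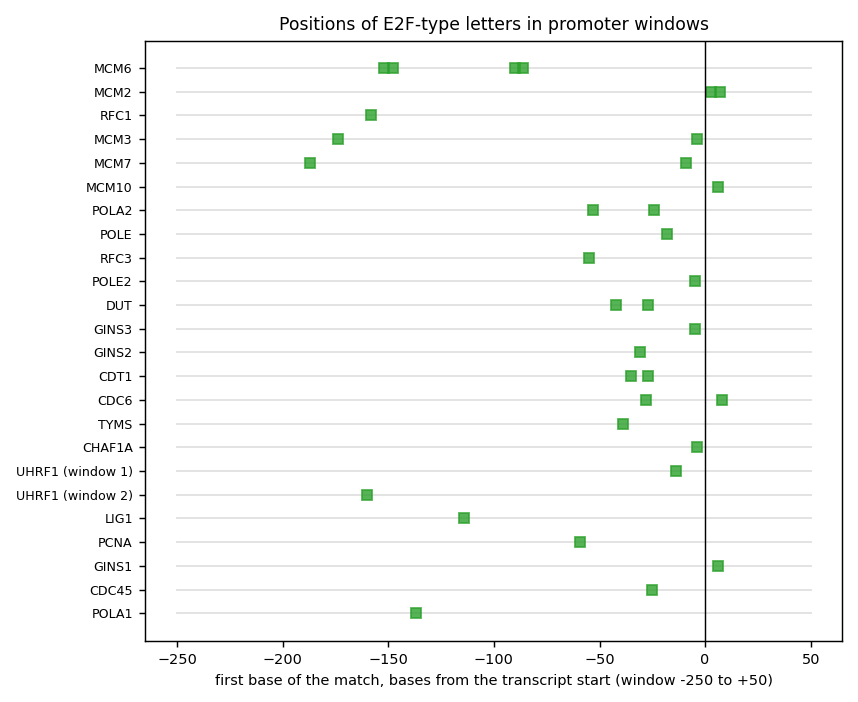
Position of each E2F-type match (green squares) in the promoter windows of the members that hold one; the x axis is the distance of the first base of the match from the transcript start, in bases, and the grey line is the window from 250 bases before to 50 bases after it. In MCM2 the matches lie 3 and 7 bases after the start, and in MCM3 they begin 174 and 4 bases before it.

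The main comparison asked how the level of these genes differed between A549 and HEK293T with the same primer. Most were lower in A549. A minimum of 20 reads in whichever library was higher left 43 genes, of which 31 (72.1%) were at least 2-fold lower in A549 on the log2(CPM + 1) scale, where 29.2% of all 10145 genes compared were lower and 60.2% differed in either direction. Another 2 genes, PCNA and RFC1, were at least 2-fold higher, where 31.0% of all genes were. The remaining 10 differed by less than 2-fold on the same scale. The median log2 ratio of A549 over HEK293T T12 was -2.12 over the 43 genes and 0.02 over all genes. Since the list was chosen with earlier results of these data known, the excess over all genes, here and below, is no independent check. In bulk samples, fewer cells in S phase and less RNA in each cell cannot be told apart.

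The 6 HEK293T libraries, which differ in primer, gave the range against which the cell line difference was read. In 30 of the 31 lower genes (69.8% of the 43) the A549 level also lay below every HEK293T library, which held for 22.1% of all genes. POLD1 was the exception. Many of these calls rest on few A549 reads: 25 of the 44 genes had under 20 reads in A549, 3 had 0 and 4 had 1 to 3. In 24 of the 31 the 95% counting interval of the ratio to HEK293T T12 lay wholly beyond 2-fold, and in 7 (ORC6, GINS1, GINS3, POLD1, RFC2, RFC4 and RPA1) it reached inside. The A549 library set against the other HEK293T libraries gave 31 lower genes of 42 against T18 (28.0% of all genes), 32 of 41 against T30 (27.1%), 31 of 40 against T18V (30.7%), 36 of 44 against T18VN (32.7%) and 36 of 42 against T18VNN (31.8%). These comparisons share the A549 library. HEK293T libraries set against HEK293T T12 in the same way gave 1 to 8 lower and 4 to 9 higher members, where 12.5% to 22.1% of all genes were lower and 14.9% to 24.4% higher. With T18V, for example, 8 of 43 members were lower, where 18.8% of all genes were.

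**Figure D2:**
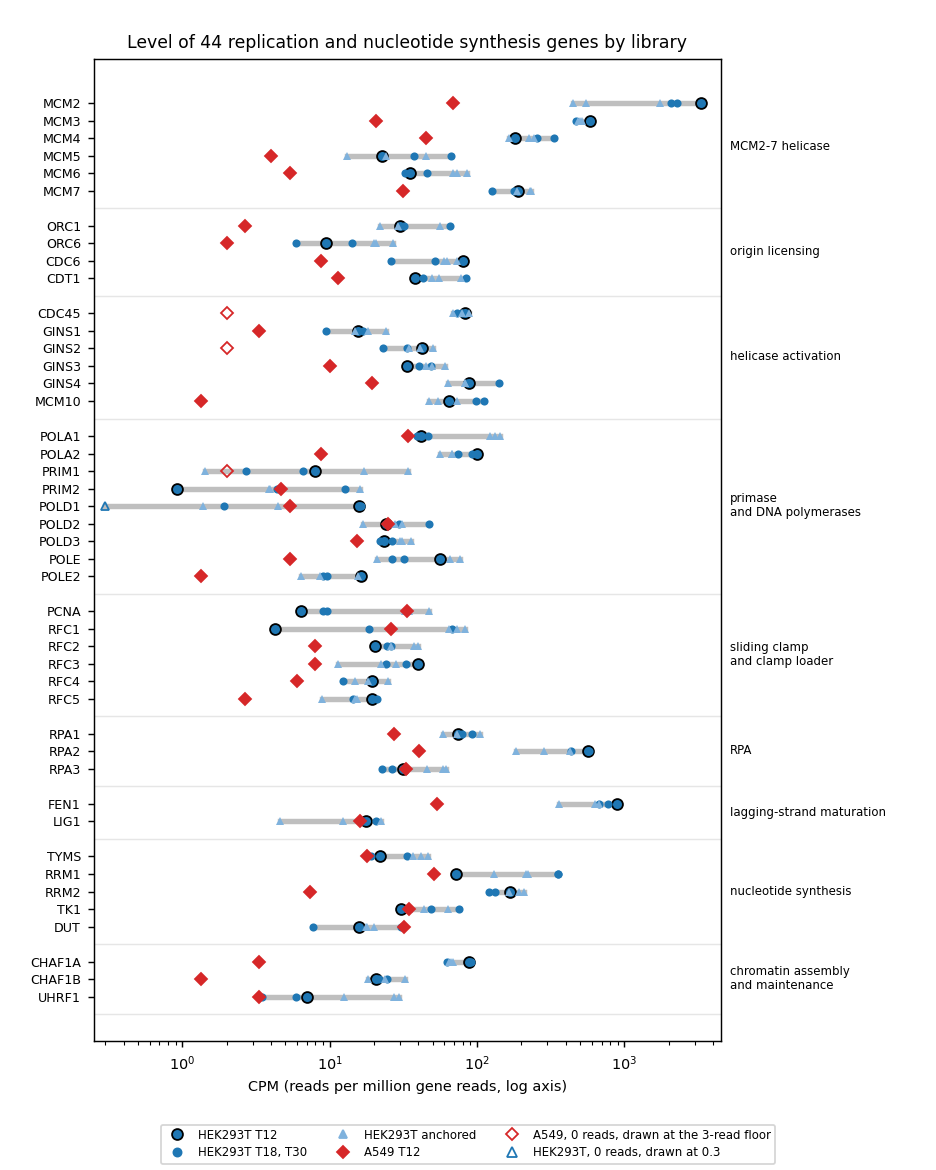
Level of each of the 44 genes in CPM on a log axis, by role, in the 6 HEK293T libraries (blue circles without an anchor, light triangles with one, grey bar from lowest to highest) and in A549 T12 (red diamonds, open where the library has 0 reads and drawn at the 3-read floor). A549 lies below the grey bar in 35 genes (PRIM1 counted at its 0 reads, although the floor falls inside the bar), above it in 1 (DUT) and inside it in 8; the open triangle of POLD1 marks 0 reads with T18V.

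All 4 origin licensing genes among the members were lower in A549. ORC1, the large ATPase subunit of the origin recognition complex, had 2.67 CPM (4 reads) in A549 and 30.0 CPM in HEK293T T12, with 22.1, 31.0 and 66.0 CPM as the lowest, median and highest of the HEK293T libraries. It was 11.2-fold lower (95% interval 4.25 to 42.1). ORC6, the smallest subunit of the complex, had 3 reads (2.00 CPM) in A549 and 5.87 to 26.7 CPM in HEK293T, and the ratio to T12 was 4.74-fold lower with an interval of 1.48 to 24.2. The rest of the complex, which is outside the members, was not lower in the same way. ORC2, ORC4 and ORC5 differed by less than 2-fold (log2 ratios 0.70, -0.62 and -0.005) and lay inside the HEK293T range. ORC3 had too few reads to be compared.

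CDC6, the ATPase that helps load the MCM ring, had 8.68 CPM in A549 and 80.5 in HEK293T T12, with 26.2, 61.1 and 80.5 CPM as lowest, median and highest over the primers. It was 9.28-fold lower (95% interval 5.33 to 17.7). CDT1, which brings MCM2-7 to the origin, was the licensing gene closest to no change. It had 11.3 CPM in A549, and in HEK293T it had 37.97, 43.1, 83.9, 77.9, 49.8 and 55.3 CPM with T12, T18, T30, T18V, T18VN and T18VNN. Every HEK293T library lay above A549, and the ratio to T12 was 3.35-fold (95% interval 2.01 to 5.93).

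All 6 subunits of the MCM2-7 helicase, the ring that unwinds the fork, were lower in A549 and below every HEK293T library. MCM2 (chr3:127317200-127341279, plus strand, hg19) had 68.7 CPM in A549. In HEK293T, T12 gave 3311 CPM, T18 2059, T30 2273, T18V 546, T18VN 1744 and T18VNN 450.4. The HEK293T libraries spread widely by primer, and the lowest of them was still 6.55-fold above A549. Against T12, MCM2 was 48.2-fold lower in A549 (95% interval 39.7 to 59.1).

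MCM3 (chr6:52128812-52149679, minus strand, hg19) had 20.7 CPM in A549. In HEK293T, T12 gave 581 CPM, T18 470.3, T30 585, T18V 514, T18VN 501 and T18VNN 483. This was the steadiest of the members across the primers, with 1.24-fold between the highest and the lowest. It was 28.1-fold lower in A549 than in HEK293T T12 (95% interval 19.7 to 41.5).

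MCM7 had 31.4 CPM in A549 and 127, 188 and 231 CPM as lowest, median and highest in HEK293T. It was 6.003-fold lower than with T12 (95% interval 4.46 to 8.26), but its span also holds part of AP4M1 and a microRNA cluster. MCM6 had 5.34 CPM in A549 and 32.5, 57.2 and 85.4 CPM in HEK293T, and was 6.54-fold lower (3.21 to 15.5). MCM5 was the least abundant subunit per length in the HEK293T median. It had 4.005 CPM (6 reads) in A549 and 13.2, 30.7 and 66.8 CPM in HEK293T. MCM4 was closest to no change, with 44.7 CPM in A549 and 180.4, 255, 333, 242, 227 and 165 CPM in HEK293T with T12, T18, T30, T18V, T18VN and T18VNN. It was 4.03-fold lower than with T12 (95% interval 3.13 to 5.27), and the groups did not overlap.

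The proteins of this ring assemble in equal numbers, and their RNA levels were unequal. Levels of different genes were compared as RPKM, CPM divided by the length of the transcript in kilobases. In HEK293T the median over the 6 libraries ran from 12.04 RPKM for MCM5 to 542 for MCM2, a 45.0-fold spread, and was 13.1-fold when MCM2 was set aside (MCM3 at 158 RPKM as the highest). In single HEK293T libraries the spread over the ring ran from 8.51-fold with T18VNN to 106-fold with T12. In A549 the same ring ran from 1.41 RPKM for MCM6 to 19.6 for MCM2, a 13.9-fold spread, which lies inside the range of the HEK293T libraries. MCM2 was the highest subunit in A549 and in 4 of the 6 HEK293T libraries, and MCM3 was the highest with T18V and T18VNN.

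All 6 genes of helicase activation were lower, and 2 of them had no read in A549. CDC45 (chr22:19467349-19508135, plus strand, hg19), which joins MCM2-7 and GINS in the active helicase, had 0 reads in A549. In HEK293T, T12 gave 83.0 CPM, T18 73.5, T30 79.4, T18V 87.5, T18VN 78.6 and T18VNN 68.4. The HEK293T libraries lay close together, and A549 was at least 41.4-fold lower than T12 against the floor of 3 reads. GINS2 (chr16:85711280-85722588, minus strand, hg19) also had 0 reads in A549, with 23.0, 37.8 and 50.6 CPM as the lowest, median and highest of the HEK293T libraries. It was at least 21.1-fold lower than with T12.

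MCM10, which binds the helicase and polymerase alpha, had 2 reads (1.33 CPM) in A549 and 47.3, 69.0 and 111 CPM as lowest, median and highest in HEK293T. The A549 level is under the 3-read floor. The ratio to T12 was 48.2-fold lower, with a wide counting interval of 13.2 to 400.4. The other 3 GINS genes kept reads in A549. GINS1 had 3.34 CPM there and 9.48 to 24.2 in HEK293T, and GINS4, which overlaps an antisense gene, had 19.4 and 64.0 to 141 CPM. GINS3 was closest to no change in the group, with 10.0 CPM in A549 and 33.7, 48.5, 40.6, 60.1, 45.1 and 49.8 CPM in HEK293T with T12, T18, T30, T18V, T18VN and T18VNN. Its ratio to T12 was 3.36-fold (95% interval 1.95 to 6.21), and A549 lay below all of them.

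Among the primase and polymerase genes, 5 of the 8 with enough reads were at least 2-fold lower and the other 3 were not. POLA2, the second subunit of polymerase alpha, had 8.68 CPM in A549 and 56.4, 70.8 and 100.1 CPM as lowest, median and highest in HEK293T. It was 11.5-fold lower than with T12 (95% interval 6.65 to 21.9). POLE, the catalytic subunit of the leading-strand polymerase epsilon, had 5.34 CPM in A549 and 20.9, 44.2 and 76.8 CPM in HEK293T. It was 10.6-fold lower than with T12 (5.24 to 24.8). POLE2, the second subunit of polymerase epsilon, had 2 reads in A549, under the 3-read floor, and 6.40 to 16.2 CPM in HEK293T.

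PRIM1, the catalytic primase subunit, had 0 reads in A549 and 7.96, 6.54, 2.71, 1.42, 17.2 and 33.9 CPM in HEK293T with T12, T18, T30, T18V, T18VN and T18VNN. It was at least 3.98-fold lower than with T12, but the A549 floor of 2.00 CPM lies above the T18V level, so its place below that library was not detectable at this depth. POLD1, the catalytic subunit of polymerase delta, had 5.34 CPM in A549 and 15.9 CPM with T12. The other HEK293T libraries gave 1.92 CPM with T18, 16.2 with T30, 0 with T18V, 4.46 with T18VN and 1.39 with T18VNN, so A549 lay inside the HEK293T range. Its log2 ratio of -1.42 against T12 became 0.42 against the mean log2 level of the 6 HEK293T libraries.

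POLD2, the second subunit of polymerase delta, was the closest to no change of the 43 genes compared. It had 24.7 CPM in A549 and 24.2, 29.6, 46.9, 31.0, 16.7 and 27.8 CPM in HEK293T with T12, T18, T30, T18V, T18VN and T18VNN. A549 lay among the HEK293T libraries, and the ratio was 1.02 (95% interval 0.671 to 1.53). POLA1, the catalytic subunit of polymerase alpha, had 34.0 CPM in A549, just under the 39.0 CPM of the lowest HEK293T library, and a ratio to T12 of 0.823 (0.585 to 1.14). POLD3, an accessory subunit of polymerase delta, had 15.4 CPM in A549 and 21.9 to 35.9 in HEK293T. PRIM2, the large primase subunit, was not compared, with 7 reads in A549 and 3 in HEK293T T12.

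The 4 small subunits of the clamp loader were all lower in A549, and PCNA and the large subunit RFC1 were not. RFC3 had 8.01 CPM in A549 and 11.4, 26.1 and 39.8 CPM as lowest, median and highest in HEK293T, and was 4.97-fold lower than with T12 (95% interval 2.75 to 9.87). RFC5 had 2.67 CPM in A549 and 8.90 to 21.0 in HEK293T, and RFC4, which overlaps EIF4A2, had 6.01 and 12.3 to 24.9 CPM. RFC2 was closest to no change, with 8.01 CPM in A549 and 20.2, 24.6, 26.2, 39.8, 25.9 and 37.5 CPM in HEK293T with T12, T18, T30, T18V, T18VN and T18VNN. Its ratio to T12 was 2.52-fold lower (95% interval 1.35 to 5.13).

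PCNA (chr20:5095599-5107268, minus strand, hg19), the clamp that holds polymerases on DNA, had 33.4 CPM in A549. It had 6.43 CPM with T12, 9.61 with T18 and 9.03 with T30 in HEK293T, and 32.4 with T18V, 34.6 with T18VN and 47.0 with T18VNN. A549 lay above the HEK293T libraries made without an anchor and within those made with one. It was 5.19-fold higher than in HEK293T T12 (95% interval 3.06 to 9.10). PCNA overlaps an antisense gene and has known pseudogene copies, and it is not given how reads matching several places were counted, so its level is uncertain.

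RFC1 (chr4:39289069-39368001, minus strand, hg19) had 26.0 CPM in A549 and only 4.29 CPM (14 reads) with T12 in HEK293T. With T18, T30, T18V, T18VN and T18VNN it had 67.5, 18.5, 64.0, 72.8 and 82.6 CPM. A549 was 6.07-fold higher than T12 (95% interval 3.23 to 12.1) and lower than 4 of the other 5 HEK293T libraries. Against the mean log2 level of the 6 libraries its log2 ratio turned from 2.35 to -0.48. Neither of the genes at least 2-fold higher in A549 therefore lay above the HEK293T range, where 26.4% of all genes did both.

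**Figure D3:**
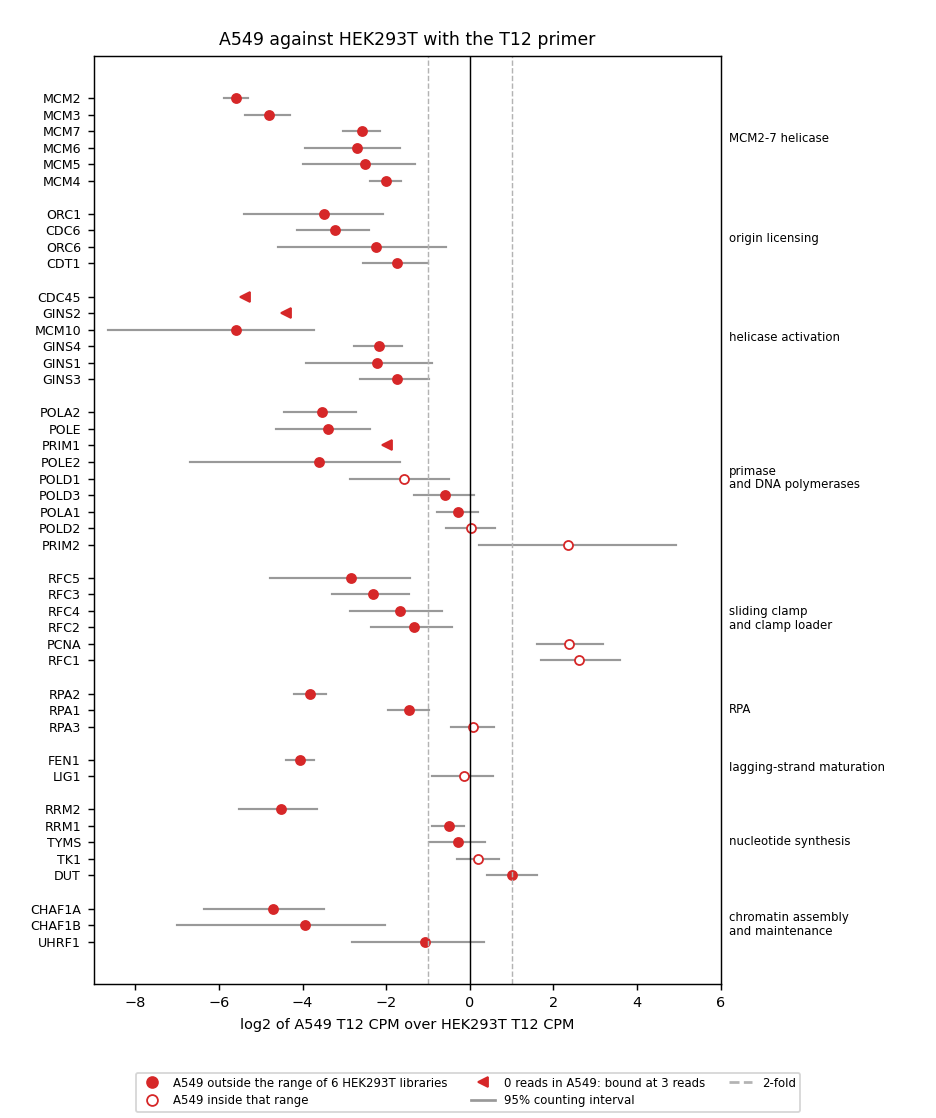
The log2 ratio of the A549 T12 CPM to the HEK293T T12 CPM for each gene by role, with 95% counting intervals (grey lines) and the 2-fold limits (dashed); filled points lie outside the range of the 6 HEK293T libraries and arrowheads are bounds for genes with 0 reads in A549. MCM2, MCM3, FEN1, RPA2 and RRM2 combine a large difference with a narrow interval. PCNA and RFC1 lie to the right of 2-fold but inside the HEK293T range, as does PRIM2, which had too few reads to be compared. The ratios are drawn without the 1 CPM added for the calls, so DUT and UHRF1 lie past the 2-fold limits here although they were not called.

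RPA, which coats single-stranded DNA, has 3 subunits, and 2 of them were lower in A549. RPA2 (chr1:28218035-28241308, minus strand, hg19) had 40.05 CPM in A549, and 564, 431, 575, 184, 429 and 284 CPM in HEK293T with T12, T18, T30, T18V, T18VN and T18VNN. The lowest HEK293T library was 4.58-fold above A549, and the ratio to T12 was 14.1-fold (95% interval 10.9 to 18.5). RPA1, the large subunit, had 27.4 CPM in A549 and 58.4, 76.97 and 105 CPM as lowest, median and highest in HEK293T, and was 2.73-fold lower than with T12 (1.96 to 3.90). RPA3, the small subunit, which overlaps UMAD1, had 32.7 CPM in A549 and 31.2, 26.3, 22.6, 61.9, 58.7 and 45.9 CPM in HEK293T with T12, T18, T30, T18V, T18VN and T18VNN. It lay inside the HEK293T range, with a ratio to T12 of 1.05 (0.729 to 1.49). Per length, the highest of the 3 subunits was 12.4-fold above the lowest in HEK293T (RPA2 at 219.8 and RPA1 at 17.7 RPKM, medians) and 3.25-fold in A549, with 3.90-fold to 25.7-fold in single HEK293T libraries.

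The genes that finish the lagging strand split in the same way. FEN1 (chr11:61560109-61564716, plus strand, hg19), the nuclease that removes flaps, had 53.4 CPM in A549, and 889.5, 675, 772, 359, 634 and 673 CPM in HEK293T with T12, T18, T30, T18V, T18VN and T18VNN. Every HEK293T library lay above A549, by 6.72-fold at the least, and the ratio to T12 was 16.7-fold (95% interval 13.3 to 21.1). LIG1, the ligase that seals the fragments, had 16.0 CPM in A549 and 17.8, 16.9, 20.8, 4.62, 12.3 and 22.2 CPM in HEK293T with the same primers in that order. A549 lay inside this range, with a ratio to T12 of 0.902 (0.536 to 1.47).

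Nucleotide synthesis was the role with the smallest median difference, a log2 ratio of -0.28, and 1 of its 5 genes was at least 2-fold lower. That gene was RRM2 (chr2:10262695-10271546, plus strand, hg19), the small subunit of ribonucleotide reductase, which is made in S phase. It had 7.34 CPM in A549, and 167, 132, 119.6, 164, 193 and 207 CPM in HEK293T with T12, T18, T30, T18V, T18VN and T18VNN. Every HEK293T library lay at least 16.3-fold above A549, and the ratio to T12 was 22.8-fold (95% interval 12.6 to 45.9).

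RRM1, the large subunit of the same enzyme, had 50.7 CPM in A549 and 72.3 CPM with T12, and 351, 353, 223, 216 and 131 CPM with T18, T30, T18V, T18VN and T18VNN. It lay below every HEK293T library, but by only 1.42-fold against T12 (95% interval 1.10 to 1.87), the lowest of them. Per length, RRM1 stood 7.30-fold above RRM2 in A549, and over the HEK293T libraries the higher of both subunits stood 1.18-fold to 3.12-fold above the lower.

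TYMS, thymidylate synthase, had 18.02 CPM in A549 and 19.0, 35.1 and 46.2 CPM as lowest, median and highest in HEK293T, and it overlaps ENOSF1. TK1, thymidine kinase of the salvage pathway, was closest to no change, with 34.7 CPM in A549 and 30.3, 48.6, 75.8, 63.3, 43.5 and 34.8 CPM in HEK293T with T12, T18, T30, T18V, T18VN and T18VNN. It lay inside the range, with a ratio of 1.14 (95% interval 0.802 to 1.62). DUT, the dUTPase that keeps uracil out of DNA, was the single gene above every HEK293T library. It had 32.0 CPM in A549 and 15.9, 30.6, 7.67, 17.8, 19.9 and 17.5 CPM in HEK293T with the same primers in that order. A549 stood barely above T18. The ratio to T12 was 2.01 in CPM (95% interval 1.33 to 3.04), and 0.97 on the log2(CPM + 1) scale of the calls, just short of 2-fold. DUT has known pseudogene copies, so its level is uncertain in the same way as that of PCNA.

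Of the chromatin genes, both subunits of CAF-1, which deposits histones behind the fork, were lower. CHAF1A (chr19:4402660-4443394, plus strand, hg19) had 3.34 CPM (5 reads) in A549 and 62.5, 67.2 and 91.2 CPM as lowest, median and highest in HEK293T. It was 26.3-fold lower than with T12 (95% interval 11.2 to 81.7). CHAF1B had 2 reads in A549, under the 3-read floor, and 18.3, 22.7 and 32.3 CPM in HEK293T. It was 15.4-fold lower than with T12 (4.09 to 129.5). UHRF1, which recruits the maintenance DNA methyltransferase, was closest to no change. It had 3.34 CPM in A549 and 7.04, 3.46, 5.87, 12.5, 27.2 and 29.5 CPM in HEK293T with T12, T18, T30, T18V, T18VN and T18VNN. In CPM it was 2.11-fold lower than with T12 (95% interval 0.785 to 7.11). On the log2(CPM + 1) scale its ratio was -0.89, and A549 lay next to the T18 library.

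The threshold on the log2(CPM + 1) ratio separated near neighbours. Just past it lay RFC2 at -1.24, and just short of it lay UHRF1 at -0.89 and DUT at 0.97.

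The 44 genes together took 0.720% of gene reads in HEK293T T12 (95% Wilson interval 0.711 to 0.729) and 0.0738% in A549 (0.0695 to 0.0782), a 9.76-fold difference (9.19 to 10.4). The other HEK293T libraries gave 0.581% with T18, 0.661% with T30, 0.404% with T18V, 0.568% with T18VN and 0.407% with T18VNN, and the lowest was 5.48-fold above A549. Much of this sum was MCM2, which held 46.0% of the members' reads in HEK293T T12 and 9.32% in A549. Without MCM2 the difference was 5.81-fold. Without MCM2, MCM3, RPA2 and FEN1, the genes with most reads, it was 3.34-fold. For those 40 genes the HEK293T libraries ran from 0.185% in T12 to 0.244% in T18V, so T12 went from the highest library to the lowest. The spread between primers, as highest over lowest, was narrower than for all 44 genes. That narrowing came from leaving out MCM2, and leaving out MCM3, RPA2 and FEN1 as well did not narrow it further.

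**Figure D4:**
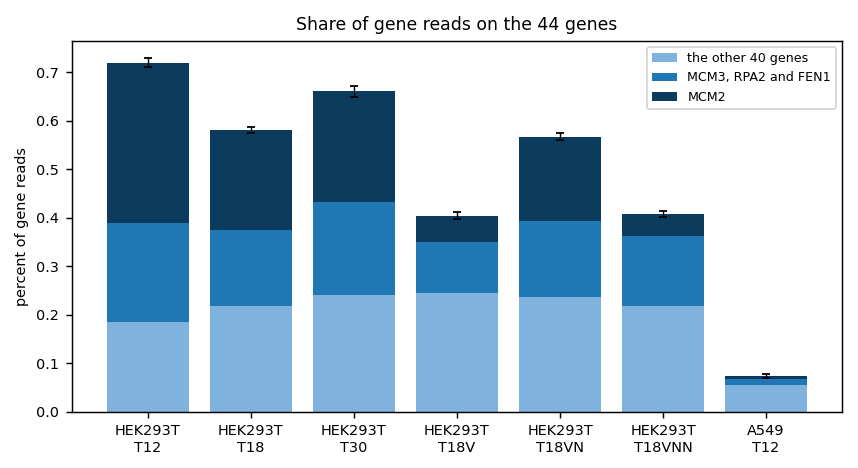
Percent of gene reads on the 44 genes in each of 7 libraries, stacked as MCM2, then MCM3, RPA2 and FEN1 together, then the other 40 genes; error bars are 95% Wilson intervals of the total. Totals run from 0.404% to 0.720% in HEK293T and reach 0.0738% in A549.

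Genes of the same pathway outside the 44 were counted in lists that were written with earlier results of these data known. Of 31 other replisome and origin genes with enough reads, 16 were at least 2-fold lower in A549 and 3 at least 2-fold higher, with a median log2 ratio of -1.35. The lowest were DTL, which targets CDT1 for destruction, RNASEH2A and the methyltransferase DNMT1 at 29.4 CPM in A549 and 403 in HEK293T T12. The highest was POLD4, a small subunit of polymerase delta, at 188 CPM in A549 and 10.1 in HEK293T T12, 18.6-fold higher (95% interval 13.0 to 27.6) and above every HEK293T library, although it overlaps another gene. Of 30 other nucleotide metabolism genes, 12 were lower and 3 higher, with a median of -0.87. CTPS1 and IMPDH2 were among the lower genes. RRM2B, the alternative small subunit of ribonucleotide reductase known as a target of p53, was among the higher genes, with 34.7 CPM (52 reads) in A549, 1 read in HEK293T T12 and at most 11.1 CPM in any HEK293T library. Its direction was thus opposite to that of RRM2.

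Of 24 regulators of the G1/S step, 11 were lower and 4 higher, with a median of -0.72. CDKN2A, which encodes the cell cycle inhibitor p16, had 0 reads in A549 and 424 CPM in HEK293T T12, 212 times the A549 floor. It overlaps an antisense gene. CDKN1A, which encodes the inhibitor p21 and overlaps a noncoding gene, had 617 CPM in A549 and 12.5 to 111 CPM in HEK293T, 5.53-fold higher than with T12, and CDKN1B was 3.22-fold higher. Of 21 mitotic genes, 17 were lower and none was higher, with a median of -2.61. Of these, 15 also lay below every HEK293T library. As for the members, 29.2% of all genes compared were at least 2-fold lower.

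The second comparison asked whether primers with an anchor measured these genes differently from primers without one in HEK293T. Each primer has 1 library, so the primers of a class stand in for replicates and the p-values measure the spread between primers, not between cultures. Library totals were 7491993 to 15955229 reads with an anchor and 18918138 to 25578543 without, and the part of depth in the results was not tested. All 44 genes were tested, and 1 gene, POLA1, passed edgeR's quasi-likelihood test at a Benjamini-Hochberg adjusted p of 0.05, where 1.35% of all 10887 genes did. At an unadjusted p of 0.05, 5 members were higher and 4 lower with an anchor, where 15.6% of all genes passed. In 13 of the 44 genes (29.5%) the classes did not overlap, 8 higher and 5 lower with an anchor, where 23.6% of all genes were separated in this way.

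Oligo(dT) primers pair with runs of A, so the longest run of A in the transcript is printed for the 3 genes with the smallest p. The 30-base stretches come from GENCODE release 29 transcripts, 5′ to 3′, with the run in capitals.
POLA1: tgctactgctgAAAAAAAAgaagtacgctg
PCNA: atttttataatacAAAAgggtcttgactct
MCM2: ggaggggagcccAAAAAcccaggtggcaag

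The run is 8 A long in POLA1 and ends 2267 bases before the 3′ end of the transcript, 4 A long and 73 bases before it in PCNA, and 5 A long and 1861 bases before it in MCM2. Over the 42 members matched to a transcript the longest run had a median of 6 bases (4 to 22), and 8 genes (19.0%) held a run of 10 or more, against 15.8% of 18244 protein-coding genes.

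POLA1 (chrX:24711950-25015103, plus strand, hg19) had 41.3 CPM with T12, 39.0 with T18 and 46.5 with T30, and 142 with T18V, 132 with T18VN and 123 with T18VNN. The class means were 42.3 ± 3.81 CPM (SD, n = 3) for plain T runs and 132.5 ± 9.57 CPM (SD, n = 3) for anchored primers, well apart. The log2 fold change of 1.48 (SE 0.31) had an adjusted p of 0.0428 in edgeR's quasi-likelihood test. The call was lost when any 1 of the 6 libraries was left out (adjusted p 0.0868 to 0.141, edgeR), while the log2 fold change stayed between 1.38 and 1.57. A small RNA gene lies within POLA1, so reads could be shared between them.

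For PCNA the mean over the 3 primers without an anchor was 8.36 ± 1.69 CPM (SD, n = 3), and over the anchored primers it was 37.99 ± 7.88 CPM (SD, n = 3). The log2 fold change of 2.00 (SE 0.44) just missed the threshold, with an adjusted p of 0.0509 in edgeR's quasi-likelihood test. The anchored HEK293T libraries, at 32.4 to 47.0 CPM, lay around the A549 level of 33.4 CPM. MCM2 went the other way, at 2548 ± 669.7 CPM (SD, n = 3) over the unanchored primers and 913 ± 720.5 CPM (SD, n = 3) over the anchored ones. The log2 fold change of -1.65 (SE 0.47) did not pass (adjusted p 0.113 in edgeR), and T18VN stood above the other anchored libraries. Without T18VN the log2 fold change was -2.52, with an adjusted p of 0.0153 in edgeR. UHRF1 (log2 fold change 1.92, adjusted p 0.125 in edgeR) and MCM6 (0.83, adjusted p 0.257) did not pass, although their classes did not overlap.

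Across all 6 primers the highest HEK293T level of a member was 2.53 times the lowest in the median of 43 genes without a 0. Among genes with at least 20 reads in every HEK293T library the median was 2.36 over 35 members and 2.68 over 6330 genes. Within these 35, MCM3 varied least (1.24-fold) and MCM2 most (7.35-fold).

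**Figure D5:**
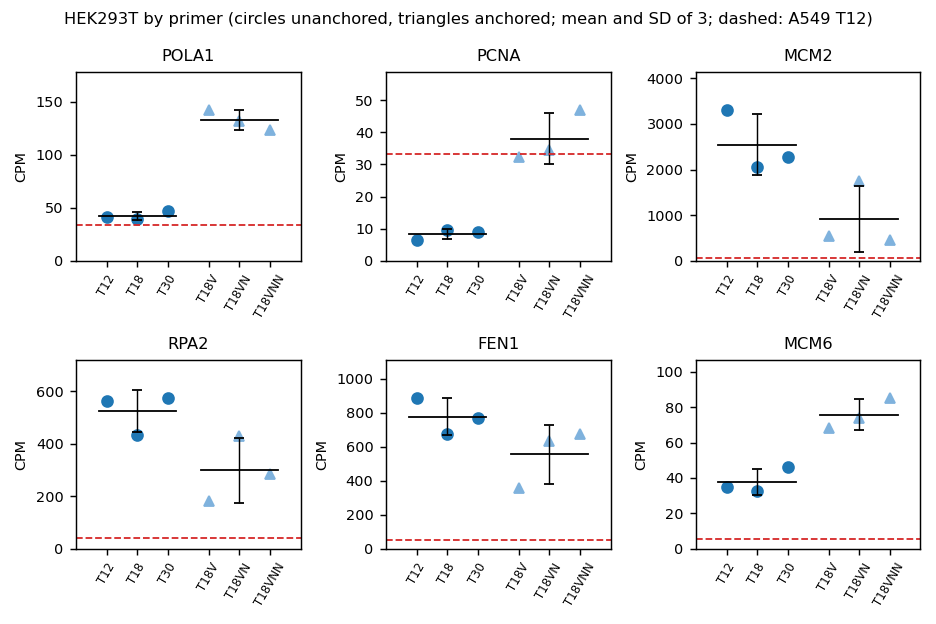
Level in CPM of 6 genes in each HEK293T library, by primer (circles without an anchor, triangles with one; black lines are the mean and SD of 3 primers), with the A549 T12 level dashed in red. POLA1 and PCNA lie higher with an anchor and MCM2 lower; the A549 line runs below every HEK293T point in 5 panels and among the anchored points in PCNA.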

How the data were processed

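Total RNA of HEK293T and A549 cells was made into libraries with oligo(dT) primers. Per the submitters' processing notes, reads were handled with FastQC 0.11.8, cutadapt 2.10, Trimmomatic 0.39, HISAT2 2.2.1 and SAMtools on GRCh37 (hg19). The authors deposited a read count per RefSeq transcript, with an FPM signal and an FPKM value derived from it per the file headers; the counting tool, its use of strand, the handling of reads with several matches and the annotation release are not given in the sources used here. The deposited FPM served only to recover library totals (7491993 to 25578543 reads), and the deposited FPKM was not used. Gene body coverage signal and poly(T) length lists, also deposited by the authors, were not used.

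Of 61177 entries, 60133 (98.3%) matched a symbol in the RefSeq table (GRCh38.p14), and the entry with most reads over the libraries was kept for each of 26625 genes. Of the 44 members, 9 overlap another gene on either strand, so reads could be shared. A549 T12 was compared with HEK293T T12 on log2(CPM + 1) at 2-fold, for genes reaching 20 reads in 1 of the 2 libraries, with exact binomial counting intervals. Primer classes were compared with edgeR 4.0.16 in R 4.3.3 (filterByExpr, TMM, quasi-likelihood F-test, Benjamini-Hochberg over all genes), with DESeq2 1.42.0 as an alternative. Both calls were tried on simulated counts. These held counting error only for the fold calls, and less spread than the real primers show for edgeR. They check the code and not how often a call is wrong in these data. Python 3.11.15 and SciPy 1.17.1 gave the rest.

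Members and lists were chosen with earlier results of these data known. By the naming rule, values are given for members at least 2-fold different with A549 outside the HEK293T range (as the lowest, median and highest or the range of the 6 HEK293T libraries where not listed by primer), for those closest to no change in each role and for those called between primers, and at most 3 genes in each direction of other lists. The remaining subunits of the origin recognition complex are named besides. A pair of libraries without gene counts was not analysed here.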

Additional observations from a re-analysis of the deposited data

Results flagged for a closer look

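FEN1 had 359 CPM with T18V, apart from the other 5 HEK293T libraries at 634 to 889.5 CPM, and the gap to its nearest neighbour was 0.627 of the whole range. Of 44 genes looked at in this way over the 6 HEK293T libraries, 1 stood out, where chance would give about 2.2. The A549 level of 53.4 CPM lay below the T18V library too.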

How the results depend on the processing

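The count of members at least 2-fold lower in A549 was 28 to 33 under 10 alternatives (pseudocount, scaling, read minimum, transcript kept, HEK293T mean, non-overlapping genes), with 35 to 44 members compared and 24.8% to 33.9% of all genes lower. At a 3-fold threshold 27 of 43 members were lower, against 19.5% of all genes. The count of higher members was 2, and became 1 with at least 50 reads, 0 against the mean log2 level of the 6 HEK293T libraries and 1 among members overlapping no other gene. Against that mean, POLD1 turned to 0.42 and RFC1 to -0.48. The median log2 ratio of the members less that of all genes was -2.14. TMM scaling left it at -2.14, although it moved the median of all genes from 0.02 to -0.24 and made 26.7% of all genes higher and 33.9% lower. Scaling to the library total gave -1.41 (members -1.67, all genes -0.26, 22.2% of all genes higher and 30.3% lower), and a pseudocount of 5 gave -1.64. Gene reads were only part of each library, 1498224 of 11127940 in A549 and 3265709 of 18918138 in HEK293T T12. Levels scaled to the library total are therefore smaller, and the 1 CPM still added to them weighs more. The -1.41 thus does not show a smaller difference, and the fold of the summed share, which has no pseudocount, rose with library totals.

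Members called between primer classes numbered 1 (POLA1) and became 3 with DESeq2, 2 with upper-quartile normalisation and 3 without a filter (MCM2 and PCNA added, or PCNA alone). Leaving out 1 library at a time gave 0 to 1. The fold of the summed share was 12.5 with library totals as denominator, and, in alternatives chosen after seeing the data, 5.81 without MCM2 and 3.34 without MCM2, MCM3, RPA2 and FEN1. The median spread over primers ran from 2.09 to 2.53 with 1 library left out.

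No paired analysis was possible because HEK293T T12 and A549 T12 share replicate numbers in the labels, but gene counts were at hand for replicate 1 of HEK293T and replicate 2 of A549. Depth limits A549 most: 25 of the 44 genes had under 20 reads there, and levels under 2.00 CPM were below the floor.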
